A study of Mus musculus with 24 samples.

Results

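The response of Serpine2 knockout microglia to lipopolysaccharide (LPS) was followed in 6 of the 24 RNA sequencing libraries of the series, chosen by their titles: the LPS knockout libraries 1 to 3 and the saline knockout libraries 1 to 3. Both groups were microglia from whole brain of adult mice without Serpine2 (Serpine2-/-), given LPS in one group and saline in the other. The closest comparison, LPS against saline in microglia of control littermates, which kept at least 1 functional allele, used 6 further libraries and shared none with the knockouts. The other 12 libraries were astrocytes and were not used. By the labels, the cells were purified on antibody-coated dishes (immunopanning) after douncing and a Percoll spin, so the libraries are bulk RNA of bound cells. The dose and route of LPS, the time after injection, the age in weeks and the deleted exons were not given in the sources used here. The LPS knockout libraries 1, 2 and 3 were labelled female, male and female, and the saline knockout libraries 1, 2 and 3 male, female and male, so sex was not balanced between the groups.

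LPS is a component of the outer membrane of Gram-negative bacteria that is sensed by CD14, MD-2 (the product of Ly96) and TLR4. Signalling through MyD88 activates NF-kB and the early cytokines and chemokines, and signalling through TRIF activates IRF3, type I interferon and, through STAT factors, the interferon-stimulated genes. Microglia, the resident macrophages of the brain, are known in health by purinergic receptors such as P2ry12 and by Tmem119, Siglech and Sall1. Serpine2 encodes protease nexin-1, a secreted inhibitor of thrombin, plasminogen activators and other serine proteases.

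Serpine2 itself had 16.9, 18.7 and 19.3 CPM in LPS knockouts 1, 2 and 3, against 20.1, 17.6 and 20.7 CPM in saline knockouts 1, 2 and 3, where CPM are gene counts per 1000000 counts, scaled with TMM factors. In the controls it had 49.1, 68.4 and 88.0 CPM with LPS and 62.2, 46.6 and 96.5 CPM with saline, so every knockout library was below every control library, although reads remained on the gene. Gene counts per knockout library ran from 4506142 to 10718971, with 28845 to 32057 genes detected, and 62.39% to 70.42% of reads lay outside annotated genes. The library labelled LPS control 1, female, held 73 Xist and 251 Ddx3y counts, the pattern of the male libraries; it enters the knockout comparison through the shared spread and, where sex is a covariate, through its label. No strand setting of the counting was stated, so reads of overlapping genes on opposite strands cannot be told apart. No source says that each library came from its own animal, so p-values measure the spread between these libraries.

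Markers of microglia were present in every library. The 13 markers, all measured, summed to 1678, 2878 and 1955 CPM in LPS knockouts 1, 2 and 3, against 5936, 2826 and 2505 CPM in saline knockouts 1, 2 and 3. The saline knockout 1 library stood above the other 5, and the groups overlapped (exact two-sided permutation p = 0.3, smallest possible 0.1). Csf1r, the receptor for the growth factor that keeps microglia alive, had 646, 1260.5 and 892 CPM in the LPS knockouts, against 1857, 882 and 856 CPM in the saline knockouts. Other cells were present too. The 15 neuron markers summed to 11740, 12670 and 12490 CPM with LPS, against 9482, 11520 and 12730 CPM with saline, and the 12 oligodendrocyte markers to 2789, 2407 and 2421 CPM with LPS, against 5297, 2914 and 2453 CPM with saline. Of the 15 marker lists, 4 separated the groups without overlap: T or NK cell and endothelial markers were higher with LPS, and neutrophil and erythrocyte markers lower (exact p = 0.1 each, the smallest possible). In bulk RNA, fewer cells of a type and less RNA per cell cannot be told apart.

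**Figure D1:**
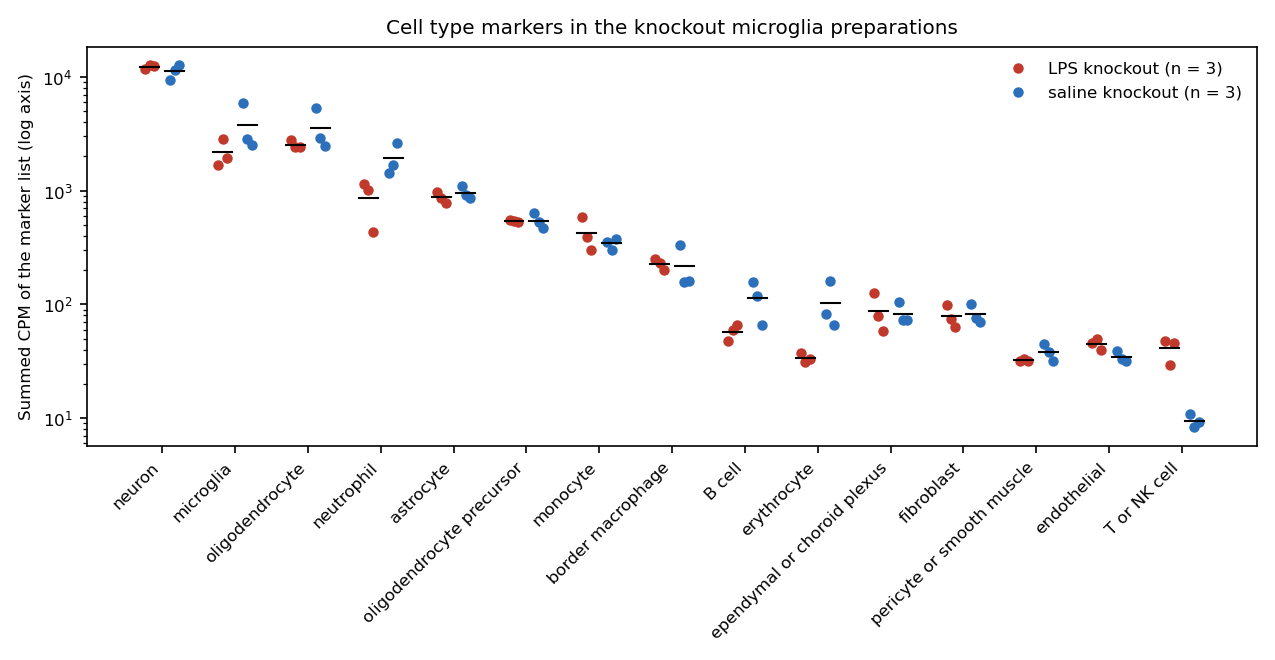
Summed CPM of each cell type's marker list (log axis) in the 3 LPS knockout and the 3 saline knockout microglia libraries; points are libraries and bars are group means. The microglia sum is highest in the saline knockout 1 library (5936 CPM), the T or NK cell sum is higher in all 3 LPS libraries (29.2 to 47.6 CPM, against 8.28 to 10.9 CPM with saline), and the neutrophil sum is lower in all 3 (436.8 to 1145 CPM, against 1433 to 2638 CPM with saline).

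With LPS, knockout microglia had higher levels of some acute phase genes, scavenger receptors, chemokines, interferon-stimulated genes and genes of cell division, and lower levels of some homeostatic, MHC class II and neutrophil granule genes; the counts for each group follow. Of 22230 genes tested, 254 were called (1.14%), 1.01% higher and 0.13%, or 29 genes, lower with LPS, by edgeR's quasi-likelihood test at a Benjamini-Hochberg adjusted p under 0.05. In all 254 the groups did not overlap. Over all genes tested, the 3 LPS libraries were all above the 3 saline libraries in 7.39% and all below in 5.56%. These shares and the shares called are the background for every list count below. The change was more than 2-fold in 223 of the called higher genes, more than 4-fold in 138 and more than 8-fold in 44, with a median log2 fold change of 2.27. All 29 called lower genes changed more than 2-fold and 18 more than 4-fold, with a median of -2.32, while the median of all genes was -0.02. Of the 254, 99 were called whichever single library was left out. The number of calls rested in part on single libraries: 92 were called higher without saline knockout 2, 120 without saline knockout 3, and 14 and 19 were called lower without LPS knockout 3 and saline knockout 1. With sex from the labels as a covariate, 138 were called higher, all among those called higher without it, and 20 lower, 18 of them among the 29. With the 6 knockout libraries alone, which leaves out LPS control 1 and its label, that covariate gave 152 higher and 19 lower.

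**Figure D2:**
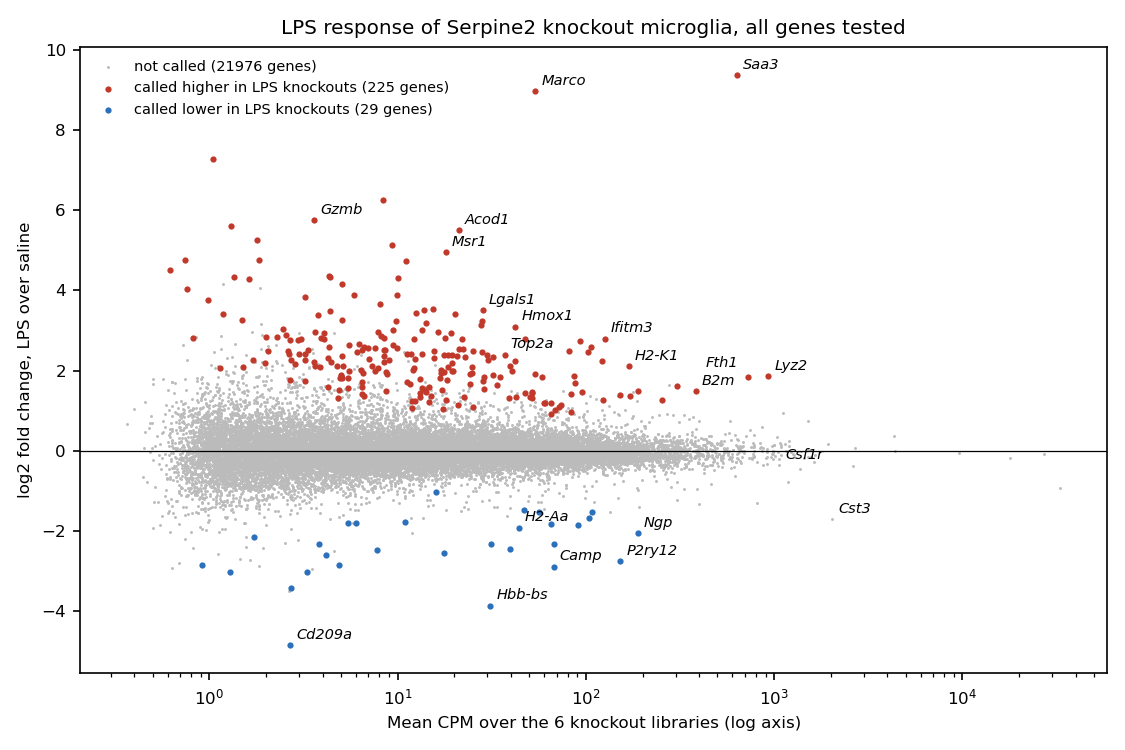
Log2 fold change of LPS over saline knockout microglia against mean CPM over the 6 libraries (log axis) for all 22230 genes tested; red points are genes called higher, blue the 29 called lower and grey the rest. Saa3 and Marco stand at the top, at 9.36 and 8.96.

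The largest change was in Saa3, a serum amyloid A protein that myeloid cells make locally in inflammation. SE values here and below were back-calculated from the fold change and the test's F statistic and are approximate. Saa3 had 1673, 1105 and 1009 CPM in LPS knockouts 1, 2 and 3, against 1.56, 2.12 and 1.95 CPM in saline knockouts 1, 2 and 3, a log2 fold change of 9.36 ± 0.49 (SE; adjusted p = 1.6e-07). Acod1, the mitochondrial enzyme that makes itaconate, had 52.0, 28.2 and 43.9 CPM with LPS and 0.521, 0.646 and 1.49 CPM with saline (log2 fold change 5.50 ± 0.50, adjusted p = 9.2e-05). Lyz2, the lysozyme of myeloid cells, was abundant in both groups, with 1769, 1184 and 1412 CPM in the LPS knockouts and 357, 365 and 487 CPM in the saline knockouts, and rose 3.61-fold (adjusted p = 0.000499). In none of these genes did the groups come near each other. Of the 18 tested of 24 acute phase and antimicrobial genes, 5 rose and none fell (median 0.90). The other members called were Wfdc17 and Hp. Wfdc17 had 90.2, 31.8 and 30.0 CPM with LPS and 2.43, 3.23 and 10.3 CPM with saline. Hp, which encodes the haemoglobin scavenger haptoglobin, had 76.7, 83.2 and 58.7 CPM with LPS and 22.05, 28.2 and 35.4 CPM with saline. The calls of Wfdc17 and Hp were lost without saline knockout 2 (adjusted p = 0.0778 and 0.0872). Lcn2, which encodes the iron-siderophore trap lipocalin 2, had 284, 211 and 174 CPM in the LPS knockouts and 97.4, 120.1 and 164 CPM in the saline knockouts and was not called (adjusted p = 0.28). Saa1, Saa2 and Nos2 were below the count filter, with 16, 11 and 32 reads over the 6 libraries. Reads of the near-identical Saa genes may be uncounted or misassigned.

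Promoters are shown for genes that rose, taken from gene groups with several calls. The windows run from 250 bases before the RefSeq start to the base before it (RefSeq sequences, build GRCm38.p6), and capitals mark a kB-type motif (GGG, any 2 bases, then TTTCC) or the core of an interferon-stimulated response element (ISRE; GAAA, any 2 bases, then GAAA), searched on both strands. Of 12844 tested genes with a window, 1.69% held the kB-type motif and 3.14% the ISRE core; of the 164 called higher with a window, 8 (4.88%) and 16 (9.76%) held them. A match is a description of the letters, not of a bound site. The window of Saa3 (chr7:46715677-46715926, minus strand) holds 1 ISRE core, 125 bases before the start, and that of Marco (chr1:120505025-120505274, minus strand) holds 1 kB-type motif, 30 bases before the start.
Saa3: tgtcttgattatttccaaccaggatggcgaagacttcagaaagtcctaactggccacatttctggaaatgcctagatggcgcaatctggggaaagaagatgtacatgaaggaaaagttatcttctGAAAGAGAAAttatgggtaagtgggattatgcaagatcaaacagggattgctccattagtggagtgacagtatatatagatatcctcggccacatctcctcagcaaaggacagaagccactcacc
Marco: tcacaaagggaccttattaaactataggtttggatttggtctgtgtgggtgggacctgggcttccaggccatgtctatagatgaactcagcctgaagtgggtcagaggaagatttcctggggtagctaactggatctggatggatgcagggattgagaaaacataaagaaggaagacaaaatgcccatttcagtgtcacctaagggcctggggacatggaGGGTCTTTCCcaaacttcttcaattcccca

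Several receptors for bacterial surfaces, modified lipids and glycans rose with LPS. Marco, a class A scavenger receptor, had 188, 49.9 and 85.3 CPM in LPS knockouts 1, 2 and 3, against 0.521, 0 and 0.230 CPM in saline knockouts 1, 2 and 3 (log2 fold change 8.96 ± 0.77, adjusted p = 8.1e-05). Msr1, the related scavenger receptor A, had 65.1, 15.1 and 24.2 CPM with LPS and 1.22, 0.831 and 1.38 CPM with saline. Clec4e, the receptor Mincle for mycobacterial glycolipid, had 39.8, 14.6 and 14.3 CPM with LPS and 0.868, 2.03 and 3.22 CPM with saline. In each of the 3 genes the LPS knockout 1 library was the highest. Siglec1, the sialic acid receptor CD169, was more even, with 37.3, 31.2 and 42.0 CPM in the LPS knockouts and 3.65, 3.51 and 3.22 CPM in the saline knockouts (log2 fold change 3.42 ± 0.30, adjusted p = 8.1e-05). Cd5l, a secreted scavenger protein of macrophages, had 13.4, 5.30 and 10.4 CPM with LPS and 0.347, 1.11 and 0 CPM with saline. Clec4a1, Cd300ld and Clec4a3 completed the 8 genes that rose among the 23 tested of 24 scavenger receptors and lectins (median 0.73), against 1.01% of all genes. Cd300ld and Clec4a3 lost the call without saline knockout 2 (adjusted p = 0.062 and 0.226). The only member that fell was Cd209a, a DC-SIGN homologue of dendritic cells, with 0.251, 0.212 and 0.0885 CPM in the LPS knockouts and 4.17, 5.26 and 6.204 CPM in the saline knockouts (log2 fold change -4.84, adjusted p = 0.00161). Mrc1, the mannose receptor of border macrophages, had 31.9, 21.0 and 13.6 CPM with LPS and 49.0, 15.7 and 24.0 CPM with saline and was not called.

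Other surface receptors of myeloid cells were among the largest changes by fold. Cd300e, an activating receptor of monocytes, had 26.2, 6.58 and 16.5 CPM with LPS and 0.521, 0 and 0.230 CPM with saline (log2 fold change 6.25 ± 0.83, adjusted p = 0.00138). Treml4, which amplifies TLR7 signalling, had 19.2, 11.2 and 27.3 CPM with LPS and 0.868, 0.554 and 1.49 CPM with saline. The adhesion receptor Adgre4 had 33.7, 6.79 and 15.04 CPM with LPS and 1.04, 1.38 and 1.26 CPM with saline. The spread over the LPS libraries was widest in Adgre4 and Cd300e, and in both the lowest LPS library was still above all saline libraries. Acp5, the tartrate-resistant acid phosphatase of osteoclasts and activated macrophages, had 22.3, 11.7 and 20.5 CPM in the LPS knockouts and 0.521, 0.646 and 0.345 CPM in the saline knockouts. Cd72, a C-type lectin-like co-receptor, had 31.2, 33.3 and 22.9 CPM with LPS and 4.17, 4.62 and 2.41 CPM with saline. Among the 8 Fc gamma receptors and related genes, Fcgr4, a low-affinity activating receptor for IgG, rose, with 33.1, 25.7 and 26.2 CPM with LPS and 2.604, 1.66 and 3.10 CPM with saline. Fcer1g, the shared signalling chain, had 171, 151 and 159.6 CPM with LPS and 92.2, 56.7 and 49.98 CPM with saline and missed the threshold (adjusted p = 0.0847). The 14 monocyte markers, all measured, summed to 300.0 to 584.4 CPM with LPS and 302.1 to 376.0 CPM with saline, highest in LPS knockout 1. Of the 12 tested, 1 (Hp) was called higher, 0 were called lower, and 6 had a positive log2 fold change. Among the markers, Ly6c2 had 9.77, 7.64 and 12.3 CPM with LPS and 12.7, 9.42 and 13.2 CPM with saline. Ccr2 had 11.1, 2.33 and 1.68 CPM with LPS and 6.25, 4.25 and 7.24 CPM with saline. None of the monocyte markers was at 0, and their part in these changes was not tested. With LPS knockout 1 and saline knockout 1 both left out, 90 of the genes called higher were still called, Marco, Msr1, Cd300e, Treml4, Adgre4, Acp5, Siglec1, Clec4e, Cd72 and Fcgr4 among them.

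**Figure D3:**
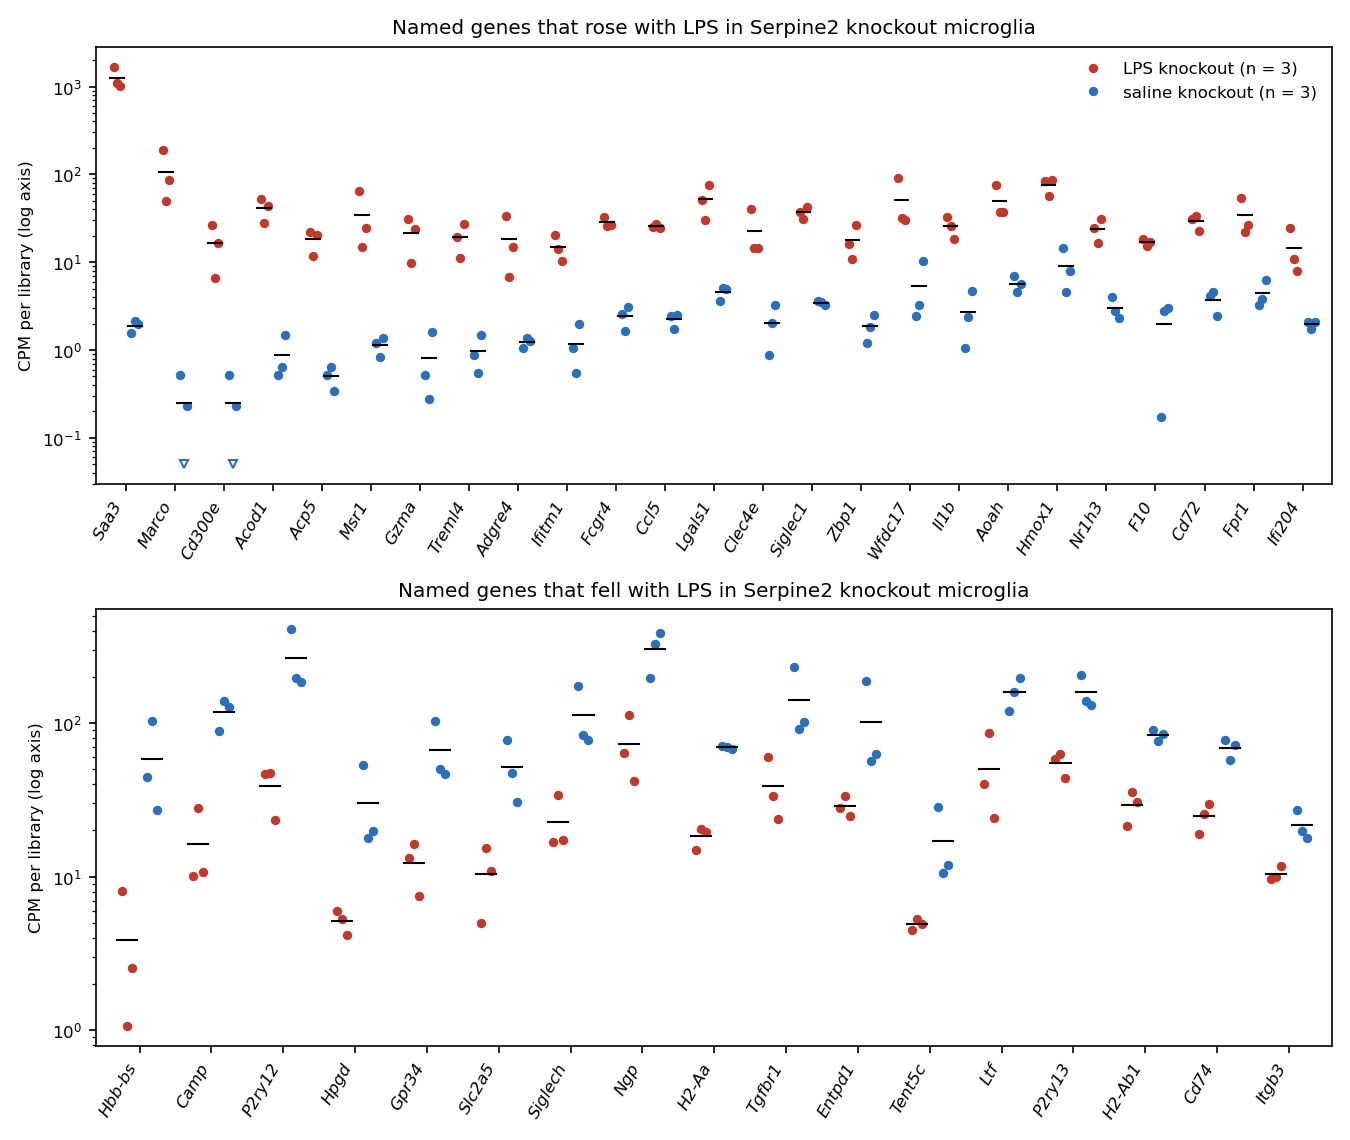
CPM per library (log axis) of the 25 genes with the largest rise and the 17 with the largest fall among called genes averaging at least 8 CPM over the 6 knockout libraries; points are libraries, bars are group means, and open triangles at the lower edge are libraries at 0. In every gene shown, as in every called gene, the 3 LPS knockout libraries lie on one side of the 3 saline knockout libraries.

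Neither Tlr4 nor Cd14, which sense LPS, was called, while some other genes on the list of LPS sensing and NF-kB feedback rose. Tlr4 had 17.8, 8.06 and 7.43 CPM in the LPS knockouts and 20.8, 10.4 and 7.35 CPM in the saline knockouts. Cd14, the co-receptor that hands LPS on, had 41.3, 56.0 and 43.4 CPM with LPS and 56.9, 22.3 and 22.6 CPM with saline. In both the groups overlapped. Tlr2, the receptor for bacterial lipoproteins, had 70.8, 74.0 and 47.3 CPM with LPS and 15.1, 12.6 and 16.3 CPM with saline (log2 fold change 2.12 ± 0.27, adjusted p = 0.00116). Aoah, the hydrolase that deacylates and inactivates LPS, had 75.04, 36.9 and 37.3 CPM with LPS and 6.94, 4.52 and 5.63 CPM with saline (log2 fold change 3.14 ± 0.37, adjusted p = 0.000572). Fpr1, the receptor for formylated bacterial peptides, had 54.1, 22.3 and 26.3 CPM with LPS and 3.30, 3.79 and 6.204 CPM with saline. Irak3, a brake on IRAK signalling, and Bcl3, an atypical I-kB protein, also rose (2.50 and 2.52 on the log2 scale), and both lost the call without saline knockout 3 (adjusted p = 0.0725 for Bcl3; the highest for Irak3 was 0.144, without saline knockout 2). In all, 5 of the 26 genes of LPS sensing and NF-kB feedback rose and none fell (median 0.44). The I-kB gene Nfkbia, an early NF-kB target, had 22.5, 13.6 and 16.1 CPM in the LPS knockouts and 23.8, 13.2 and 6.78 CPM in the saline knockouts. Nfkb1 had 72.5, 78.9 and 79.4 CPM with LPS and 84.9, 69.2 and 72.0 CPM with saline, neither called. None of the 26 tested immediate early and dissociation genes was called in either direction by edgeR (median 0.13). Fos had 34.6, 18.03 and 55.7 CPM with LPS and 27.8, 24.1 and 25.6 CPM with saline.

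Of 15 tested of 22 cytokine genes, Il1b and Tnf rose (list median 0.24). Il1b had 32.8, 25.9 and 18.1 CPM in LPS knockouts 1, 2 and 3, against 1.04, 2.40 and 4.71 CPM in saline knockouts 1, 2 and 3 (log2 fold change 3.18 ± 0.49, adjusted p = 0.00368). Tnf had 5.51, 12.3 and 10.0 CPM with LPS and 0.347, 1.48 and 0.804 CPM with saline (log2 fold change 3.27 ± 0.52, adjusted p = 0.00447). Both were low in count, and neither overlapped between the groups. Il1r2, the decoy receptor for interleukin 1, had 27.3, 21.0 and 6.72 CPM with LPS and 3.65, 2.31 and 4.02 CPM with saline and missed the threshold (adjusted p = 0.0684). Il6, Il10 and Ifnb1 were below the count filter, with 13, 17 and 0 reads over the 6 libraries.

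Chemokines had one of the highest shares of calls, 8 of the 17 tested of 23 (47.1%, against 1.01% of all genes), with a median of 1.88. The other listed chemokines were under the count filter. A gene near 0 with saline could pass it only through the LPS libraries, which leans both values toward rises. Ccl5, which draws T cells and monocytes, had 25.1, 27.2 and 24.4 CPM in the LPS knockouts and 2.43, 1.75 and 2.53 CPM in the saline knockouts, well apart. Cxcl10, a CXCR3 ligand induced by interferon, had 9.90, 7.21 and 7.96 CPM with LPS and 0.521, 0.0923 and 0.689 CPM with saline (log2 fold change 4.32 ± 0.58, adjusted p = 0.00138). Cxcl16, the ligand of CXCR6, had 27.7, 38.4 and 22.4 CPM with LPS and 9.20, 3.42 and 4.71 CPM with saline. These 3 calls held without any 1 library, and also without LPS knockout 1 and saline knockout 1 together. The other 5 did not, and 4 of the 8 stayed called without LPS knockout 3 or any of the saline knockouts and 5 without LPS knockout 1: Ccl2, Ccl12, Ccl6, Cxcl2 and Cxcl13 each lost the call without saline knockout 2 or 3, the highest adjusted p being 0.123, 0.0684, 0.196, 0.124 and 0.207. Ccl12, a mouse ligand of CCR2, had 51.7, 37.97 and 25.7 CPM with LPS and 3.82, 3.69 and 9.19 CPM with saline. Ccl2, the main CCR2 ligand, had 12.03, 5.94 and 10.6 CPM with LPS and 1.91, 1.20 and 1.61 CPM with saline. Ccl3 and Ccl4 had log2 fold changes of 1.34 and 1.13 and were not called (adjusted p = 0.0606 and 0.307). Cxcl2, which draws neutrophils, was low, at 3.63, 3.39 and 6.28 CPM with LPS and 0.347, 0.923 and 0.230 CPM with saline. Its window (chr5:90903649-90903898, plus strand) is shown because it holds a pair of kB-type motifs, 97 and 78 bases before the start.
Cxcl2: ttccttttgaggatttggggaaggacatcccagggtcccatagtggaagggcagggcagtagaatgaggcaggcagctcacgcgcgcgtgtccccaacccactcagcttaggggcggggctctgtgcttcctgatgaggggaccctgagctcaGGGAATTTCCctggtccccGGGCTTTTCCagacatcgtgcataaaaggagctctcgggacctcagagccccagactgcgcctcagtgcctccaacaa

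Interferon-stimulated genes moved together in direction. All 43 tested of 45 had a positive log2 fold change, with a list median of 1.35. In 26 of them all LPS libraries were above all saline libraries, against 7.39% of all genes. In all, 13 rose (30.2%, against 1.01% of all genes). Ifitm3, an antiviral membrane protein, had 221.48, 138 and 301 CPM in LPS knockouts 1, 2 and 3, against 22.4, 32.3 and 40.1 CPM in saline knockouts 1, 2 and 3 (log2 fold change 2.80 ± 0.41, adjusted p = 0.00264). Its relative Ifitm1 had 20.5, 14 and 10.4 CPM with LPS and 1.04, 0.554 and 1.95 CPM with saline. Ifitm2 had 25.9, 13.2 and 24.7 CPM with LPS and 3.12, 1.57 and 4.71 CPM with saline. In all 3 the groups were apart. Zbp1, a sensor of Z-form nucleic acid, had 16.3, 10.8 and 26.3 CPM with LPS and 1.22, 1.85 and 2.53 CPM with saline (log2 fold change 3.23 ± 0.43, adjusted p = 0.00138). Ifi204, a nucleic acid sensor of the p200 family, had 24.3, 10.8 and 7.88 CPM with LPS and 2.08, 1.75 and 2.07 CPM with saline. Of the 2'-5'-oligoadenylate synthetase family, which detects double-stranded RNA, Oas1a, Oas1g, Oasl1 and Oasl2 rose. Oas1a had 15.8, 12.5 and 22.9 CPM with LPS and 2.43, 3.79 and 2.30 CPM with saline, with the groups apart. Oas2 and Oas3 had log2 fold changes of 1.48 and 0.51 and were not called. Lgals3bp, a secreted galectin ligand, Slfn2, Bst2 (tetherin) and Usp18, which removes ISG15 from proteins and damps interferon signalling, completed the 13. Without LPS knockout 1 and saline knockout 1 together, 5 of the 13 stayed called. Without saline knockout 2, 7 of the 13 stayed called, and Bst2, Ifitm2, Oas1g, Oasl1, Slfn2 and Usp18 did not (highest adjusted p with any 1 library left out 0.126, 0.0582, 0.157, 0.0582, 0.0582 and 0.109).

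Several of the classic interferon-stimulated genes were not called. Isg15, a ubiquitin-like modifier, had 2.76, 2.55 and 5.49 CPM with LPS and 2.43, 1.85 and 2.07 CPM with saline, and Ifit1, Ifit2 and Ifit3 had log2 fold changes of 0.63, 0.79 and 1.60. Of the 21 tested of 23 genes for STAT, IRF, Jak and Socs proteins only Socs3, a feedback inhibitor of cytokine receptors, rose, with 22.9, 47.1 and 38.8 CPM in the LPS knockouts and 6.08, 5.45 and 7.12 CPM in the saline knockouts (adjusted p = 0.00825; 0.0573 without saline knockout 2). Irf7, the interferon-induced IRF, had 18.2, 16.97 and 42.0 CPM with LPS and 3.47, 8.40 and 5.28 CPM with saline, apart in all libraries but widely spread (adjusted p = 0.0692). Among the 8 tested of 15 interferon-induced GTPases, Gbp2 rose, with 7.77, 5.30 and 6.37 CPM with LPS and 0.347, 0.369 and 1.72 CPM with saline, and lost the call without saline knockout 2 (adjusted p = 0.0861). Reads of near-identical Gbp and Ifit genes may be uncounted or misassigned.

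Of 33 interferon-stimulated genes with a promoter window, 15 (45.5%) held an ISRE core, and of the 10 called ones 4 did (40.0%), against 3.14% of all windows. The windows of Oas1a (chr5:120907526-120907775, minus strand) and Bst2 (chr8:71537473-71537722, minus strand) are shown because each holds an overlapping pair, starting 20 and 14 bases before the start in Oas1a and 130 and 124 bases before it in Bst2. That of B2m (chr2:122147437-122147686, plus strand) is shown because it holds an ISRE core, 139 bases before the start, beside a kB-type motif on the other strand, 126 bases before it.
Oas1a: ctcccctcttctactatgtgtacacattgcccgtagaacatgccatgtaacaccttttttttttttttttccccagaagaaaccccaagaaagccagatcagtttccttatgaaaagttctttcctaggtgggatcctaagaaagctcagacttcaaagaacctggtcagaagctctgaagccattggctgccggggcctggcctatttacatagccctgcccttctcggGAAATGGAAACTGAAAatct
Bst2: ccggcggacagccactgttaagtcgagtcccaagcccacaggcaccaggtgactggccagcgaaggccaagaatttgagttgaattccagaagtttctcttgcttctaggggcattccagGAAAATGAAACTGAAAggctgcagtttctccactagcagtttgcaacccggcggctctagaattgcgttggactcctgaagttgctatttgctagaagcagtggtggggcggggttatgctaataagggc
B2m: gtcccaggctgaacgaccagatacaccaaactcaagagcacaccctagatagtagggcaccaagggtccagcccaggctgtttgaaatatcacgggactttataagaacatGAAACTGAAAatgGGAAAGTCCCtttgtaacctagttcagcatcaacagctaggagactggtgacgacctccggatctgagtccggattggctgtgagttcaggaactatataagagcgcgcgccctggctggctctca

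The antigen presentation pathways moved in opposite directions. MHC class I, which displays cytosolic peptides, had 4 of 19 tested genes higher (21.1%, against 1.01% of all genes) and none lower. The log2 fold change was positive in all 19 (median 1.06). H2-K1 had 264, 289 and 269 CPM in LPS knockouts 1, 2 and 3, against 78.8, 56.9 and 56.3 CPM in saline knockouts 1, 2 and 3 (log2 fold change 2.10 ± 0.27, adjusted p = 0.00113). B2m, the light chain of class I molecules, had 733, 568 and 396 CPM with LPS and 256, 166 and 184 CPM with saline. H2-D1 had 279, 221.04 and 239 CPM with LPS and 124, 77.4 and 83.8 CPM with saline. H2-Q4, at 5.14, 3.82 and 5.04 CPM with LPS and 1.22, 1.02 and 0.919 CPM with saline, rose as well. The calls of B2m and H2-D1 were lost without saline knockout 2 (adjusted p = 0.0518 and 0.0684). Reads of the near-identical class I heavy chains may be uncounted or misassigned. The peptide transporter gene Tap1 had 23.2, 32.7 and 36.5 CPM with LPS and 11.1, 11.8 and 11.1 CPM with saline and missed the threshold (adjusted p = 0.0542).

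MHC class II, which displays peptides taken up from outside, had 3 of 10 genes lower (30%, against 0.13% of all genes) and none higher. The log2 fold change was negative in all 10 (median -1.27). H2-Aa had 15.03, 20.6 and 19.6 CPM in the LPS knockouts and 70.8, 69.9 and 68.1 CPM in the saline knockouts, with little spread in either group (log2 fold change -1.92 ± 0.30, adjusted p = 0.00422). H2-Ab1, its partner chain, had 21.5, 35.9 and 30.7 CPM with LPS and 90.1, 76.1 and 85.5 CPM with saline. Cd74, the invariant chain, had 19.0, 25.5 and 29.8 CPM with LPS and 77.6, 57.2 and 71.8 CPM with saline. The call of H2-Ab1 was lost without any 1 of the 6 knockout libraries. That of Cd74 was lost without LPS knockout 1, LPS knockout 2, saline knockout 1 or saline knockout 3. The highest adjusted p was 0.103 for H2-Ab1 and 0.0829 for Cd74, both without LPS knockout 1, so that H2-Aa alone stayed called. Ciita, the master activator of class II genes, had 8.02, 14.6 and 13.01 CPM with LPS and 11.8, 16.0 and 16.2 CPM with saline and was not called. Levels of B cell markers, all 11 measured, summed to 47.2, 59.8 and 66.0 CPM in the LPS knockouts and 157.5, 117.6 and 65.3 CPM in the saline knockouts. Mgl2 and Cd209a, lectins of dendritic cells and other antigen-presenting cells, fell too. Mgl2, singled out after its values were seen, had 0.501, 0.212 and 0.531 CPM with LPS and 6.42, 4.89 and 3.68 CPM with saline. The part of such cells in the class II result was not tested.

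Of 40 genes of DNA replication and mitosis, all tested, 17 rose in knockout microglia given LPS (42.5%, against 1.01% of all genes) and none fell. All 40 had a positive log2 fold change, and the median was 1.49. In 30 the LPS libraries were all above the saline libraries, against 7.39% of all genes. Top2a, the topoisomerase of dividing cells, had 109.7, 31.4 and 45.1 CPM in LPS knockouts 1, 2 and 3, against 11.5, 10.6 and 13.4 CPM in saline knockouts 1, 2 and 3 (log2 fold change 2.39 ± 0.42, adjusted p = 0.0087). Mcm5, a subunit of the replicative helicase, had 24.8, 17.6 and 35.6 CPM with LPS and 5.55, 5.08 and 5.17 CPM with saline (log2 fold change 2.31 ± 0.31, adjusted p = 0.00138). Aurkb, a kinase of chromosome segregation, had 15.3, 8.06 and 12.4 CPM with LPS and 1.74, 2.22 and 2.07 CPM with saline (log2 fold change 2.56 ± 0.32, adjusted p = 0.00113). Cdk1, the kinase that drives entry into mitosis, had 20.4, 9.12 and 13.4 CPM with LPS and 2.95, 1.66 and 3.10 CPM with saline. LPS knockout 1 was the highest library for Top2a, Aurkb and Cdk1 and LPS knockout 3 for Mcm5, while no saline library reached the lowest LPS library. The helicase genes Mcm2, Mcm3 and Mcm6, the cyclins Ccna2 and Ccnb1, the spindle and checkpoint genes Plk1, Aurka, Tpx2, Bub1b, Cdc20, Cdca8 and Birc5, and the ribonucleotide reductase gene Rrm2 also rose.

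Mki67, which encodes the proliferation antigen Ki-67, had 79.9, 29.3 and 34.1 CPM with LPS and 15.8, 18.6 and 18.5 CPM with saline and missed the threshold (adjusted p = 0.0519). The G1 cyclins Ccne1 and Ccne2 had log2 fold changes of 0.23 and 0.04. The size of the group depended on single libraries: 4 of the 17 stayed called without saline knockout 2, 8 without saline knockout 1 or saline knockout 3, 9 without LPS knockout 1 and 10 without LPS knockout 3. The 4 called whichever library was left out were Aurka, Aurkb, Birc5 and Mcm5. With microglia marker level as a covariate 9 of the 17 stayed called, Mcm5 among them, and 8 did not, Top2a among them (adjusted p = 0.00773 for Mcm5 and 0.0652 for Top2a). With sex as a covariate 9 stayed called too. In the 6 knockout libraries alone that covariate left 5 called, and Top2a and Birc5 were among the 12 lost. Without LPS knockout 1 and saline knockout 1 together 2 stayed called, Aurkb and Mcm5. The labels give nothing on which cells divided.

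Promoters of the cell cycle list were searched on both strands for CCAAT, the box bound by NF-Y in many mitotic genes, and for the cell cycle homology element (TTTGAA). Of 33 listed genes with a window, 27 (81.8%) held CCAAT, and of the 14 called ones 13 (92.9%), against 39.4% of all windows and 39.6% of the windows of all genes called higher. TTTGAA was in 9 of the 33 (27.3%), against 13.4% of all windows and 19.5% of the windows of all genes called higher. It was also in 10 of 33 windows of interferon-stimulated genes (30.3%), so it was not particular to the cell cycle list. The windows of Top2a (chr11:99024190-99024439, minus strand) and Cdk1 (chr10:69352913-69353162, minus strand) are shown, with CCAAT or its reverse complement ATTGG in capitals: Top2a holds 6 and Cdk1 holds 3.
Top2a: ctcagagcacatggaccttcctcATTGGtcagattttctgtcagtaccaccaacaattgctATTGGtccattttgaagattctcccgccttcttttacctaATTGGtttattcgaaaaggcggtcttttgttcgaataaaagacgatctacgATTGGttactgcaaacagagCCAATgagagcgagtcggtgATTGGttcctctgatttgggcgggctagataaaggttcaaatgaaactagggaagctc
Cdk1: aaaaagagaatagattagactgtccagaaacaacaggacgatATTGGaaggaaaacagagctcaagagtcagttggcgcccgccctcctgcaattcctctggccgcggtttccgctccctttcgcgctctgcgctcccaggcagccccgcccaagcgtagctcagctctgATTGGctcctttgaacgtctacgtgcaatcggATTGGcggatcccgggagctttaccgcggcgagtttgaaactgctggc

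Of 28 homeostatic genes of microglia, all tested, 8 fell and none rose (28.6%, against 0.13% of all genes). The median was -0.98, and in 14 all LPS libraries were below all saline libraries, against 5.56% of all genes. P2ry12, the ADP receptor that steers microglial processes, had 47.0, 47.1 and 23.5 CPM in LPS knockouts 1, 2 and 3, against 409.7, 197 and 186 CPM in saline knockouts 1, 2 and 3 (log2 fold change -2.76 ± 0.36, adjusted p = 0.00136). P2ry13, its neighbour and another ADP receptor, had 58.5, 63.2 and 43.9 CPM with LPS and 207, 139 and 131 CPM with saline (log2 fold change -1.53 ± 0.22, adjusted p = 0.00209). Gpr34, a lysophosphatidylserine receptor, had 13.2, 16.3 and 7.52 CPM with LPS and 103, 50.6 and 46.6 CPM with saline. In all 3 the saline knockout 1 library was the highest, and the other saline libraries were close to each other and still above every LPS library. Siglech had 16.9, 33.9 and 17.3 CPM with LPS and 175, 84.2 and 78.0 CPM with saline. Hpgd, which encodes an enzyme that degrades prostaglandins, had 6.01, 5.30 and 4.16 CPM with LPS and 53.1, 17.8 and 19.9 CPM with saline. The fructose transporter gene Slc2a5 had 5.01, 15.5 and 10.97 CPM with LPS and 78.1, 47.5 and 30.4 CPM with saline. Upk1b and the ATP-degrading ectoenzyme gene Entpd1 were the other members called. Entpd1 had 27.8, 33.5 and 24.8 CPM with LPS and 187, 56.4 and 63.2 CPM with saline and was not called when LPS knockout 3 was left out (adjusted p = 0.155). Its call was also lost without LPS knockout 1, LPS knockout 2, saline knockout 1, LPS control 1 or LPS control 2. The other 7 were called without any 1 library, but Siglech, Slc2a5 and Upk1b lost the call without LPS knockout 1 and saline knockout 1 together (adjusted p = 0.0664, 0.131 and 0.058), which left 4 of the 8 called.

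Other markers of microglial identity did not pass. Tmem119 had 129.7, 278 and 184 CPM in the LPS knockouts and 664, 265 and 186 CPM in the saline knockouts, with the groups overlapping. Sall1, a transcription factor that maintains microglial identity, had 26.9, 42.2 and 28.0 CPM with LPS and 127, 58.2 and 50.3 CPM with saline (adjusted p = 0.11). Cx3cr1, the fractalkine receptor, had 102, 127 and 87.2 CPM with LPS and 472, 186 and 180.4 CPM with saline (adjusted p = 0.1). Cst3, which encodes cystatin C, had 717, 1205 and 934 CPM with LPS and 5071, 2513 and 1748 CPM with saline (adjusted p = 0.089). With the summed level of the 13 microglia markers as a covariate, P2ry12 had a log2 fold change of -2.29 (adjusted p = 0.00678), and P2ry13, Gpr34, Siglech, Hpgd, Slc2a5 and Upk1b stayed called, while Entpd1 was not called (adjusted p = 0.18). P2ry12, Gpr34 and Siglech are themselves among the 13. Of the 22 tested of 24 genes of TGF-beta signalling, the pathway that sustains homeostatic microglia, only Tgfbr1, a receptor subunit, fell, with 59.8, 33.3 and 23.9 CPM with LPS and 231, 92.1 and 102 CPM with saline. It lost the call with that covariate (adjusted p = 0.147), and without LPS knockout 2 (adjusted p = 0.0971), LPS knockout 3 or saline knockout 1. The median of that list was -0.17. Itgb3, an integrin subunit, and Tent5c, a cytoplasmic poly(A) polymerase, were also among the genes that fell, at -1.04 and -1.77 on the log2 scale, and both lost the call without saline knockout 1 (adjusted p = 0.199 and 0.121). The call of Itgb3 was lost without any 1 of the 6 knockout libraries, and that of Tent5c also without any 1 LPS knockout library.

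Genes seen in disease-associated microglia moved less evenly: 7 of 26 rose and none fell (median 0.44). Fth1, the ferritin heavy chain, had 1326, 1023 and 1042 CPM in the LPS knockouts and 494, 216 and 239 CPM in the saline knockouts. Lgals3, which encodes galectin-3, had 40.8, 29.3 and 47.7 CPM with LPS and 8.33, 10.9 and 11.5 CPM with saline. Cd52, Lyz2, B2m, Ccl6 and the cholesterol 25-hydroxylase gene Ch25h were the others. Without saline knockout 2 only Lgals3 and Lyz2 of the 7 stayed called, and 4 of the 7 without LPS knockout 1, saline knockout 1 or saline knockout 3. The lipid-sensing receptor gene Trem2 had 46.7, 103 and 63.7 CPM with LPS and 170.5, 89.7 and 71.9 CPM with saline. Apoe had 251, 419.6 and 244 CPM with LPS and 395, 187 and 203 CPM with saline. Neither was called.

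Of the 19 tested of 20 neutrophil granule genes, 5 fell in knockout microglia (26.3%, against 0.13% of all genes) and none rose, with a median of -1.11. Camp, the cathelicidin antimicrobial peptide, had 10.1, 28.2 and 10.7 CPM in LPS knockouts 1, 2 and 3, against 89.0, 139 and 127 CPM in saline knockouts 1, 2 and 3 (log2 fold change -2.89 ± 0.35, adjusted p = 0.000644). Ngp, the neutrophilic granule protein, had 64.1, 113 and 42.0 CPM with LPS and 197, 329 and 384 CPM with saline (log2 fold change -2.06 ± 0.32, adjusted p = 0.00359). Ly6g, a surface marker of mouse neutrophils, was low, at 1.13, 1.06 and 1.33 CPM with LPS and 5.21, 8.03 and 12.5 CPM with saline (log2 fold change -2.85 ± 0.39, adjusted p = 0.00161). These 3 calls held without any 1 library, whereas those of Ltf (lactoferrin) and Fcnb (ficolin B) did not. Without saline knockout 3 their adjusted p was 0.139 and 0.0725. Both also lost the call without LPS knockout 1 or LPS knockout 3, and Ltf without saline knockout 2. With sex as a covariate in the 6 knockout libraries alone, both were lost as well. S100a8, a calprotectin subunit, had 335, 320.3 and 136 CPM with LPS and 354, 464 and 713 CPM with saline. Its partner S100a9 had 409, 177 and 91.6 CPM with LPS and 416, 378 and 914 CPM with saline, neither called. The 15 neutrophil markers, all measured and 10 of them in this list, summed to 1145, 1017 and 436.8 CPM in the LPS knockouts and 1433, 1700 and 2638 CPM in the saline knockouts. Cxcr2, a receptor of mature neutrophils, had 64.3, 37.3 and 11.5 CPM with LPS and 18.4, 10.2 and 24.4 CPM with saline. Csf3r had 71.9, 93.3 and 55.04 CPM with LPS and 91.3, 52.7 and 53.9 CPM with saline. The part of neutrophils in the preparation was not tested.

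Genes of red cells and of cytotoxic lymphocytes were called in opposite directions. Hbb-bs, a beta-globin gene, had 8.02, 1.06 and 2.57 CPM with LPS and 44.8, 103 and 27.0 CPM with saline and fell (log2 fold change -3.86 ± 0.72, adjusted p = 0.0131). Reads of Hbb-bs and Hbb-bt may be uncounted or misassigned. The call of Hbb-bs was lost without LPS knockout 3 (adjusted p = 0.0783), LPS knockout 2 or saline knockout 2. It was the only call among the 10 tested of 17 haemoglobin and erythroid genes (median -0.76), and the 7 of 8 erythrocyte markers measured summed to 31.1 to 37.3 CPM with LPS and 66.1 to 161.1 CPM with saline. Among the 9 tested of 22 cytotoxic lymphocyte genes 4 rose (44.4%, against 1.01% of all genes, median 2.10). The other listed genes were under the count filter. A gene near 0 with saline could pass it only through the LPS libraries, so this share and median lean toward rises. Gzma, a granzyme of NK and cytotoxic T cells, had 30.8, 9.76 and 23.7 CPM in the LPS knockouts and 0.521, 0.277 and 1.61 CPM in the saline knockouts. Gzmb had 7.89, 7.42 and 6.02 CPM with LPS and 0, 0 and 0.345 CPM with saline. Both calls held without any 1 library, while those of Il2rb, an interleukin 2 receptor chain, and Ncr1, the NK cell receptor NKp46, were lost without saline knockout 2 (adjusted p = 0.132 and 0.217). The call of Ncr1 was lost without any 1 of the 6 knockout libraries. The 14 T or NK cell markers, which share Gzma, Il2rb and Ncr1 with that list, summed to 47.6, 29.2 and 46.2 CPM with LPS and 10.9, 8.28 and 9.27 CPM with saline. Gzma, at 30.8, 9.76 and 23.7 CPM, was the main part of the sum in LPS knockouts 1 and 3 and a smaller part in LPS knockout 2. Only 6 of the 14 passed the count filter, and the T cell receptor complex genes were not among them. The part of lymphocytes was not tested.

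Complement, iron and lectin genes gave a few calls each, not all of which held without every library. Of 18 tested of 20 complement genes, 4 rose (22.2%, against 1.01% of all genes, median 0.97). C4b, which encodes complement C4, had 44.8, 45.2 and 52.5 CPM with LPS and 11.6, 6.56 and 7.93 CPM with saline (log2 fold change 2.47 ± 0.35, adjusted p = 0.00182). Cfp, which encodes properdin, had 72.0, 67.5 and 81.1 CPM with LPS and 27.1, 33.1 and 29.2 CPM with saline. C3 and the C5a receptor gene C5ar1 rose but lost the call without any 1 of the 6 knockout libraries. The highest adjusted p was 0.189 and 0.142, without saline knockout 2. The C1q genes, made by microglia, were not called; C1qb had 565, 1003 and 836 CPM with LPS and 1019.5, 485 and 371 CPM with saline. Of 20 tested of 22 genes of iron and heme handling, 5 rose (25%, against 1.01% of all genes, median 0.73). Hmox1, heme oxygenase 1, had 83.6, 56.2 and 85.1 CPM in the LPS knockouts and 14.6, 4.52 and 7.93 CPM in the saline knockouts (log2 fold change 3.09 ± 0.47, adjusted p = 0.00317), and was the only one of the 5 called without each library in turn. Blvrb, Fth1, Hp and Cp lost the call without saline knockout 2 (adjusted p with any 1 library left out up to 0.0608, 0.114, 0.0872 and 0.144). Of 18 tested of 19 annexins, S100 proteins and galectins, Lgals1, Lgals3, Anxa2 and Anxa5 rose and held their calls without any 1 library (list median 0.67). Lgals1, which encodes galectin-1, had 50.7, 30.3 and 75.2 CPM with LPS and 3.65, 5.08 and 4.94 CPM with saline. Anxa2 had 105, 67.0 and 84.1 CPM with LPS and 18.6, 21.1 and 27.8 CPM with saline.

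Few metabolic genes were called. Of 22 genes of glycolysis and glucose transport, Ldha, lactate dehydrogenase A, rose, with 226, 203 and 226 CPM in the LPS knockouts and 91.3, 71.3 and 88.2 CPM in the saline knockouts (log2 fold change 1.39 ± 0.19, adjusted p = 0.00161), and only Slc2a5 fell (median 0.31). None of 23 oxidative phosphorylation genes was called by edgeR (median 0.10). Of 22 genes of cholesterol synthesis and efflux, Nr1h3, which encodes the oxysterol receptor LXR alpha, rose, with 24.4, 16.5 and 30.8 CPM with LPS and 3.99, 2.77 and 2.30 CPM with saline, as did Ch25h, which was low in count and lost the call without saline knockout 2 (adjusted p = 0.23). The synthesis enzymes lay between -0.37 (Hmgcs1) and 0.21 (Mvd) on the log2 scale (list median 0.01). Genes of reactive astrocytes were called in 6 of 19 tested of 22 (median 0.81), all higher, and 3 of the 6 stayed called without saline knockout 2 or LPS knockout 1. They were Cd44, Cp, Cxcl10, Emp1, Serpina3n and Vim. Vim, which encodes the intermediate filament vimentin, had 220.2, 116 and 182 CPM with LPS and 31.8, 21.2 and 41.7 CPM with saline. Gfap, the defining astrocyte gene among them, had 8.27, 9.33 and 8.41 CPM with LPS and 7.64, 4.99 and 4.83 CPM with saline and was not called. The 12 astrocyte markers summed to 779.6 to 973.6 CPM with LPS and 861.7 to 1093 CPM with saline.

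The protease system that Serpine2 acts on changed in 1 gene of the 19 tested of 25. F10, coagulation factor X, had 18.5, 15.5 and 16.99 CPM in LPS knockouts 1, 2 and 3, against 0.174, 2.77 and 2.99 CPM in saline knockouts 1, 2 and 3 (log2 fold change 3.01 ± 0.56, adjusted p = 0.0128; 0.0512 without saline knockout 2). The median of the list was -0.08. F2, prothrombin, had 1.13, 0.849 and 0.708 CPM with LPS and 2.08, 1.75 and 2.99 CPM with saline. Plat, tissue plasminogen activator, had 88.1, 78.1 and 89.2 CPM with LPS and 116, 87.6 and 75.9 CPM with saline. The thrombin receptor gene F2r had 8.52, 7.85 and 8.49 CPM with LPS and 5.21, 7.02 and 7.24 CPM with saline. None was called. Of a separate list of serpins, 9 tested of 16, Serpina3n, an inhibitor of serine proteases such as granzyme B in mouse, rose, with 33.8, 22.3 and 23.01 CPM in the LPS knockouts and 6.25, 3.88 and 4.25 CPM in the saline knockouts (log2 fold change 2.48 ± 0.34, adjusted p = 0.00161), and held its call without any 1 library.

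**Figure D4:**
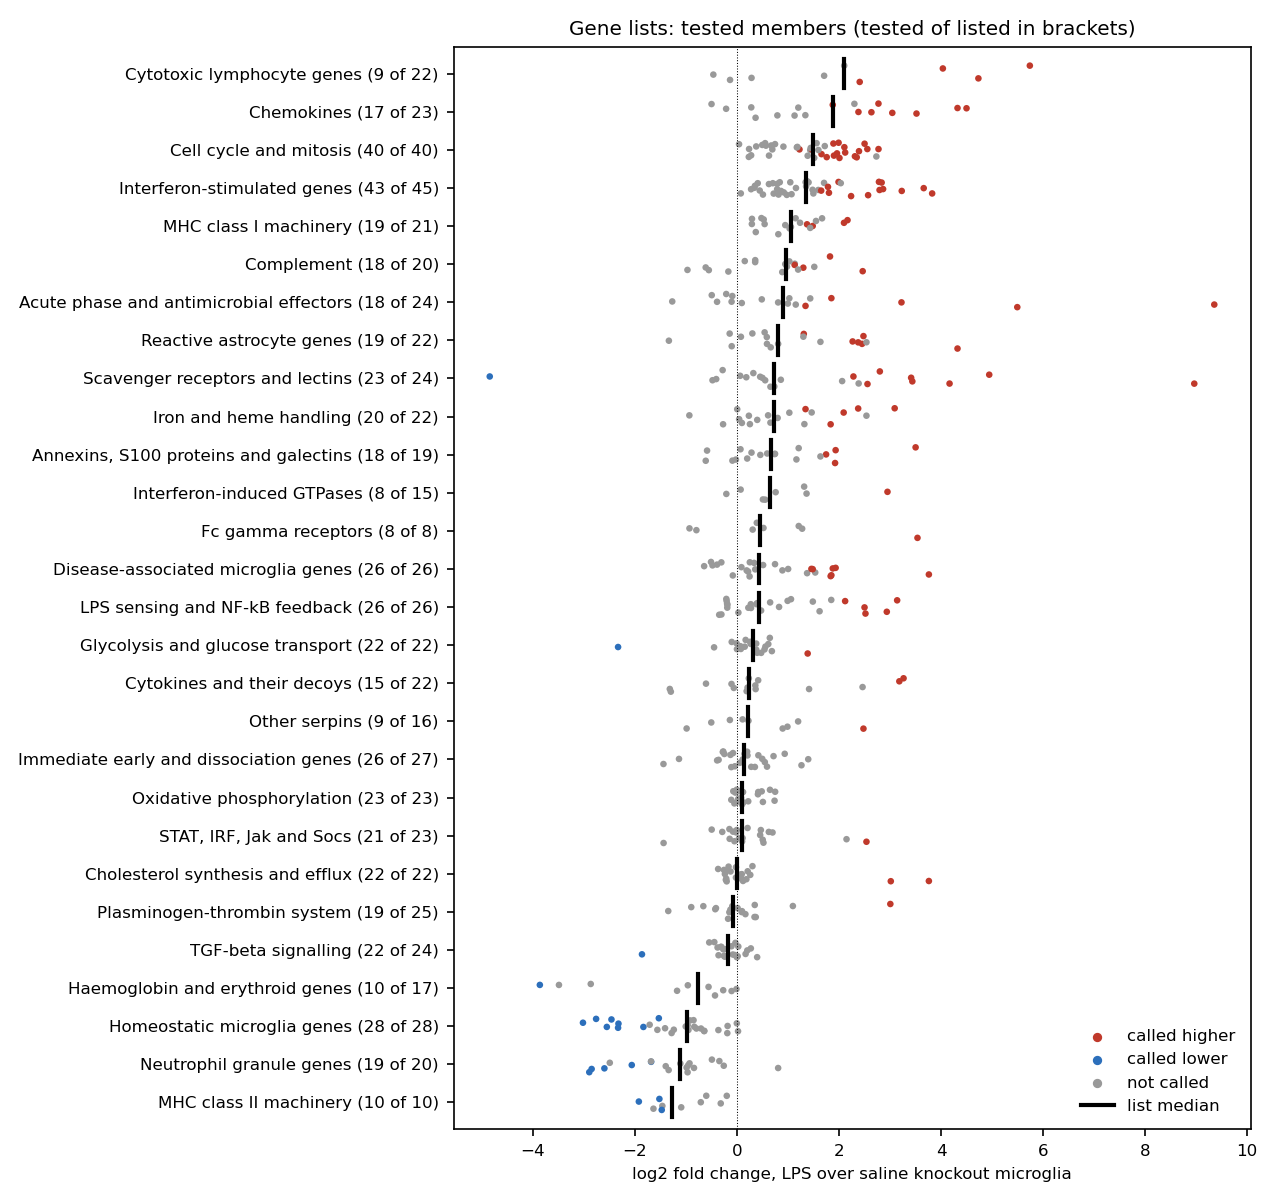
Log2 fold change of LPS over saline knockout microglia for the tested members of 28 gene lists, ordered by list median (black bars). Red points are called higher, blue called lower and grey not called, and lists share some genes. Cytotoxic, chemokine, cell cycle and interferon lists have the highest medians (2.10, 1.88, 1.49 and 1.35), and MHC class II, neutrophil granule and homeostatic lists the lowest (-1.27, -1.11 and -0.98). Members under the count filter are left out, which leans the cytotoxic and chemokine medians toward rises.

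In control microglia the same treatment gave 117 genes called higher and 11 lower (0.526% and 0.0495% of those tested). Of the 254 genes called in knockouts, 105 were also called higher and 9 lower in controls, and 253 had the same sign in both genotypes; the exception was Ltf. The remaining 140 were not called in controls, which is no test of a difference. That test, the interaction between genotype and LPS, called 0 genes with edgeR, with 251 at an unadjusted p under 0.05, while DESeq2 called 1. It also called 0 without the library labelled LPS control 1, where 208 genes were called higher and 26 lower in the knockouts. Saa3 had a log2 fold change of 9.36 in knockouts and 8.68 in controls, P2ry12 -2.76 and -2.74, and Marco 8.96 and 8.61. Their differences were 0.68 ± 0.57, -0.02 ± 0.48 and 0.35 ± 2.09 (SE). These SE come from the F statistic of the interaction test, not from the SE of the responses, and are approximate.

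With predicted and unnamed genes left out, the smallest unadjusted p-values of the interaction fell on neutrophil genes. Of those 10 smallest, 8 belonged to the granule list, although none passed adjustment (adjusted p = 0.9999 each). Camp differed most by p, with a log2 fold change of -2.89 in knockouts and -0.35 in controls, a difference of -2.54 ± 0.46 (SE; unadjusted p = 6.5e-05, edgeR). Camp had 38.2, 34.0 and 38.8 CPM in LPS controls 1, 2 and 3 and 48.0, 37.99 and 55.5 CPM in saline controls 1, 2 and 3, so every saline knockout library was above, and every LPS knockout library below, all 6 control libraries. The same held for Ngp, with 123, 138 and 136 CPM in the LPS controls and 120.4, 133 and 159 CPM in the saline controls (difference -2.01 ± 0.43, unadjusted p = 0.000349, edgeR). Mpo, myeloperoxidase, had 3.26, 11.2 and 3.19 CPM in LPS knockouts and 12.2, 24.1 and 17.1 CPM in saline knockouts, against 14.3, 8.85 and 11.1 CPM in LPS controls and 5.53, 5.65 and 7.17 CPM in saline controls (difference -2.57 ± 0.60, unadjusted p = 0.000689, edgeR). Ctsg, Ltf, Elane, Ly6g and Fcnb were the other granule genes, and Adamts13 and Taf13 completed the 10. The summed neutrophil markers were 436.8 to 1145 CPM in the LPS knockouts and 1433 to 2638 CPM in the saline knockouts, against 706.7 to 1061 CPM in the LPS controls and 778.0 to 916.9 CPM in the saline controls. Their part in these differences was not tested. H2-Aa had a log2 fold change of -1.92 in knockouts and -0.82 in controls (difference -1.10 ± 0.42, unadjusted p = 0.0188, edgeR).

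**Figure D5:**
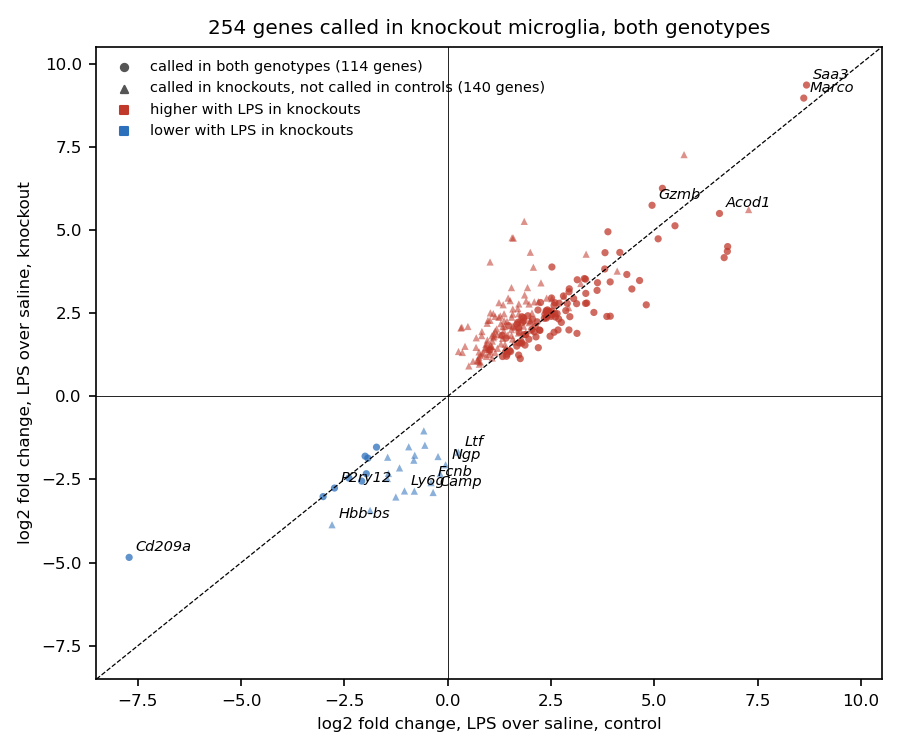
Log2 fold change of LPS over saline in knockout microglia (vertical axis) against that in control microglia (horizontal axis) for the 254 genes called in knockouts; circles are the 114 also called in controls, triangles the 140 not called there, and the dashed line marks equal values. All but Ltf lie in the same direction in both genotypes, and Camp, Ngp, Fcnb, Ly6g and Ltf lie well below the line, although no difference passed adjustment.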

How the data were processed

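Microglia of Serpine2 knockout and control littermate mice, given LPS or saline, were compared by RNA sequencing. Per the labels' protocols, brains were perfused with PBS, and RNA was taken up in TRIzol, purified with miRNeasy and converted to libraries (Ovation V2, then NEBNext Ultra). The authors deposited raw read counts per gene, 1 column per library; STAR 2.6.0c and HTSeq are named in the submitters' processing notes, as are GRCm38 and GRCm39 without a role, so no coordinates come from the counts. Reads carried no molecular identifiers. Summary rows of the counter, dropped here, held 71.95% to 77.7% of reads in the knockout libraries, most of them reads outside annotated genes. These rows included reads aligned to more than 1 place, 6.288% to 8.573% of reads. Of 53700 gene identifiers, 52093 had a symbol in the reference table.

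The 12 microglia libraries were fitted together with edgeR 4.0.16 in R 4.3.3: genes kept by filterByExpr (minimum count 10, total 15; 22230 genes), TMM factors, robust quasi-likelihood test, Benjamini-Hochberg adjustment over all genes, call at 0.05. Contrasts were LPS minus saline in knockouts, in controls, and their difference. Each SE was taken as the absolute log2 fold change divided by the square root of the F statistic. Named genes were the 25 largest rises and up to 20 largest falls (17 qualified) among called genes averaging at least 8 CPM. The 10 smallest p of the difference and list members were named too. Predicted and unnamed genes were left out of the rankings by fold change and by p. Members, lists and markers were chosen with earlier results of these data known. Marker sums used exact permutation tests. Fitting was tested on simulated data. Alternatives were DESeq2 1.42.0, RLE size factors, no filter, a minimum count of 50, the 6 knockout libraries alone, sex or replicate number as a term, and each library left out; leaving out LPS knockout 1 and saline knockout 1 together, and microglia marker level as a covariate, were added after seeing the data.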

Additional observations from a re-analysis of the deposited data

How the results depend on the processing

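In knockout microglia, where 1.01% of genes were called higher and 29 genes lower, DESeq2 called 432 and 83, dropping the count filter gave 507 and 130, and sex as a covariate gave 138 and 20, or 152 and 19 with the 6 knockout libraries alone. Microglia marker level as a covariate gave 296 and 27, of which 162 and 19 were also called without it. Without LPS knockout 1 and saline knockout 1 together the counts were 93 and 13. With 1 library left out they ranged from 92 to 311 higher and 14 to 44 lower. In controls, with 117 higher and 11 lower, DESeq2 called 246 and 35, no filter 362 and 101, microglia marker level as a covariate 185 and 30, and leaving out both knockout libraries 30 lower; with 1 library left out they ranged from 83 to 141 and from 6 to 19. The difference between genotypes, with 0 calls, had 1 higher and 6 lower with no filter, 1 lower with DESeq2, and 0 to 1 lower with 1 library left out. Deviations of same-numbered knockout libraries correlated at 0.217, 0.0929 and -0.087, within the range of differently numbered ones (-0.318 to 0.332). These values do not settle whether replicate numbers pair the libraries. With replicate number as a block, 253 genes were called higher and 47 lower in knockouts and 20 lower in controls. Of the 42 genes chosen by size, 28 were called under every alternative, and none changed sign. Of the 116 called genes on lists or chosen by size, 50 were called under every alternative that tested them, and 48 lost the call without saline knockout 2. A minimum count of 50 tested 103 of the 116. The cause of the losses was not tested. With 3 libraries a group, depth limits the precision for genes of low count, and genes under the filter entered only the fit without it.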

Other observations

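Of the 254 called genes, 109 were on a list described above. The rest included receptors and kinases that set the threshold of myeloid activation, named after their values were seen. Pirb, an inhibitory receptor for MHC class I, had 63.1, 60.2 and 70.6 CPM in LPS knockouts 1, 2 and 3, against 16.1, 15.3 and 17.7 CPM in saline knockouts 1, 2 and 3 (log2 fold change 1.98 ± 0.24, adjusted p = 0.000817). Pilra, another inhibitory receptor, had 54.7, 33.1 and 39.6 CPM with LPS and 7.64, 5.82 and 9.42 CPM with saline. Fgr, a kinase of the Src family in myeloid cells, had 58.0, 42.2 and 61.0 CPM with LPS and 8.51, 11.5 and 11.9 CPM with saline. In all 3 genes the groups were apart, as in every called gene, and their calls held without any 1 library. Itgal, the integrin chain of LFA-1, had 87.7, 65.1 and 95.2 CPM with LPS and 10.4, 13.7 and 11.6 CPM with saline (log2 fold change 2.79 ± 0.27, adjusted p = 9.2e-05). Spn, the sialomucin CD43, had 38.1, 20.6 and 38.5 CPM with LPS and 9.72, 3.79 and 5.51 CPM with saline. Cd38, an ectoenzyme that consumes NAD, had 51.9, 15.7 and 25.7 CPM in the LPS knockouts and 6.08, 4.62 and 2.76 CPM in the saline knockouts.

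Single genes of the matrix, lysosome and lipid droplets rose as well. Tgfbi, an extracellular matrix protein induced by TGF-beta, had 195, 166 and 190.0 CPM in the LPS knockouts, against 35.8, 25.2 and 30.3 CPM in the saline knockouts (adjusted p = 9.2e-05). Ifi30, the lysosomal thiol reductase GILT that reduces antigens for presentation, had 161, 180.3 and 142 CPM with LPS and 29.3, 18.7 and 24.8 CPM with saline. Plin2, a coat protein of lipid droplets, had 74.0, 45.0 and 87.8 CPM with LPS and 16.5, 13.9 and 14.02 CPM with saline. Xdh, xanthine dehydrogenase, had 48.1, 30.8 and 35.2 CPM with LPS and 6.94, 6.65 and 8.85 CPM with saline. Gpx1, a glutathione peroxidase, had 471, 407 and 500.1 CPM with LPS and 158, 170.3 and 125 CPM with saline. Ripk3, the kinase of necroptosis, had 10.6, 7.64 and 14.4 CPM with LPS and 0.868, 0.185 and 1.26 CPM with saline. The calls of these 6 genes held without any 1 library. Their groups did not overlap, as was so for every called gene. Tubulin genes were among the calls. Tuba1c had 37.8, 30.8 and 45.0 CPM with LPS and 6.08, 7.39 and 6.09 CPM with saline. Tubb6 had 28.9, 20.6 and 31.3 CPM with LPS and 8.51, 8.03 and 4.60 CPM with saline. Tubb5 and Tuba1b rose too, but their calls were lost without saline knockout 3 (adjusted p = 0.101 and 0.139). Tlr5, the receptor for bacterial flagellin, fell, with 1.503, 3.39 and 2.48 CPM in the LPS knockouts and 13.2, 6.19 and 6.09 CPM in the saline knockouts (log2 fold change -1.80 ± 0.39, adjusted p = 0.0355), and lost the call without saline knockout 1 (adjusted p = 0.137).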
